A study of Mus musculus with 6 samples.

Results

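The 8 ephrin genes of the mouse, Efna1 to Efna5 and Efnb1 to Efnb3, were described in embryonic eye tissue from albino and pigmented mice. They were taken as the complete gene family, with earlier results of these data known. On the array 17 probe sets named exactly 1 of them. All 8 had a probe set with a mean log2 value of 5 or more over the 6 arrays, the lowest level that was tested, out of 12098 genes that met this level. The albino group held 3 pools of tissue from albino embryos and the pigmented control group held 3 pools from pigmented embryos, all at embryonic day 13.5, with 3 to 4 littermates in each pool and 1 array for each pool. The labels give no strain, no mutated gene and no sex for either group. The tissue was labelled as RPE (retinal pigment epithelium, the pigmented cell layer at the back of the eye), dissected free of cornea, lens, neural retina and extraocular tissue, though a second label speaks of the entire eye region.

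Ephrins are membrane-bound ligands of the Eph receptors, the largest family of receptor tyrosine kinases, and signal where neighbouring cells touch. A-class ephrins are held in the outer membrane by a lipid anchor and bind mainly EphA receptors, while B-class ephrins cross the membrane, bind mainly EphB receptors and can signal back into their own cell through a cytoplasmic tail. In the developing eye and brain their graded expression guides retinal axons to their targets and keeps cell populations apart.

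None of the 8 ephrin genes passed the test between the genotypes. The limma adjusted p over all 23591 tested probe sets was 0.999 for each of them, and across the array 0 probe sets passed (0% called, smallest adjusted p = 0.5). Of the 8 genes, 5 read higher and 3 lower in albino pools with a median log2 difference of 0.038, beside a median of 0.047 and 64.4% higher over all tested probe sets. That split depended on the scaling. After median centring, in which each array was centred on the median of its tested probe sets, 2 of the 8 were higher. After cyclic loess 3 of the 8 were higher. At an unadjusted p under 0.05 there were 0 of the 8 ephrins, against 4.68% of all tested probe sets. The albino arrays all lay above the pigmented arrays for 1 ephrin, Efna4, against 7.39% of all tested probe sets, and all below them for 0 ephrins, against 3.44%.

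The tissue markers bear on how these values are read. Of the RPE identity genes, the regulators Mitf and Otx2 (named for this check, outside the rule of the smallest p) averaged 10.11 ± 0.04 and 9.80 ± 0.07 over the 3 albino arrays, against 10.21 ± 0.006 and 9.89 ± 0.27 over the 3 pigmented arrays (SD). Rpe65 and Lrat, genes of the retinoid cycle, were below the tested level in both genotypes. Markers of other tissues were also present, and skeletal muscle markers stood apart between the genotypes, with 12 of 12 higher in albino pools. Their mean read 9.23, 9.24 and 8.52 on the albino arrays, against 7.43, 7.07 and 8.03 on the pigmented arrays. The lens mean was 5.57 on albino replicate 3 and between 7.55 and 7.89 on the other 5 arrays. In such bulk tissue fewer cells of a type and less RNA per cell cannot be told apart.

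**Figure D1:**
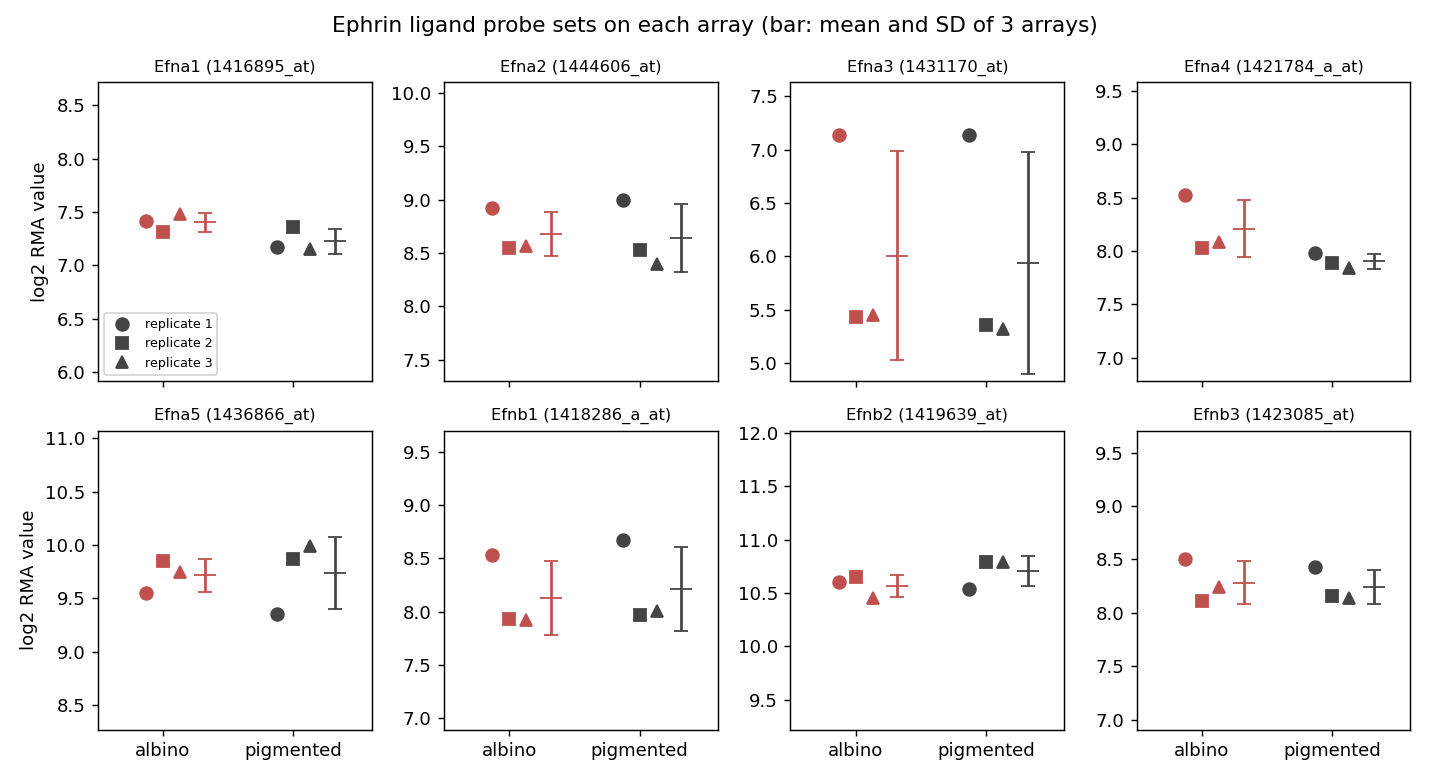
Log2 RMA value (vertical axes, each spanning 2.8 log2 units) of the probe set that represents each ephrin gene on the 3 albino (red) and 3 pigmented (grey) arrays, with the marker shape giving the replicate number and the bar the mean and SD of 3 arrays. Efna4 is the 1 gene whose genotypes do not overlap, and the replicate 1 arrays of both genotypes stand apart for Efna2, Efna3, Efna5, Efnb1 and Efnb3.

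Efna4, which encodes the lipid-anchored ligand ephrin-A4, showed the largest difference of the 8. Its only probe set (1421784_a_at) read 8.52, 8.03 and 8.08 on the albino arrays, against 7.98, 7.89 and 7.84 on the pigmented arrays. The lowest albino array therefore lay above the highest pigmented array, by a margin smaller than the spread among the albino arrays, of which replicate 1 was highest. Efna4 averaged 8.21 ± 0.27 over the albino arrays, against 7.90 ± 0.07 over the pigmented ones (SD, n = 3 each). The difference was 0.31 (SE 0.15, 95% confidence interval -0.05 to 0.66), or 1.24-fold, and did not pass (limma adjusted p = 0.999, unadjusted p = 0.0801). An exact permutation test of the arrays gave a two-sided p = 0.1, below which 3 arrays against 3 cannot go. Genotypes without overlap always give this value, so it adds nothing to the absence of overlap.

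Arrays of the same replicate number differed for Efna4 by 0.54, 0.14 and 0.24, with albino higher in 3 of 3 pairs. Since its genotypes do not overlap, any pairing of the arrays would give that count. With the replicate number as a block the limma SE was 0.093 and the unadjusted p = 0.0211, while the adjusted p was 0.224. That made Efna4 the 1 ephrin of 8 at an unadjusted p under 0.05 in the blocked fit, against 18.0% of all tested probe sets. The value rested partly on albino replicate 1, without which it was 0.15. Skeletal muscle markers read higher on the same albino arrays, and their part in the value was not tested.

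Efna1 encodes ephrin-A1, a ligand first found in endothelial cells exposed to an inflammatory cytokine. Its representative probe set (1416895_at) read 7.42, 7.31 and 7.48 on the albino arrays, against 7.17, 7.36 and 7.15 on the pigmented arrays. Pigmented replicate 2 lay above albino replicate 2, so the genotypes overlapped. The difference was 0.18 (SE 0.10, interval -0.07 to 0.42) and did not pass. The second probe set (1448510_at), which read 6.32, 6.17 and 6.19 in the albino pools, against 6.24, 6.11 and 5.80 in pigmented pools, gave the same 0.18 with an SE of 0.13. Both probe sets of Efna1 thus averaged higher in albino pools, and both intervals covered 0.

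Efna3, which encodes ephrin-A3, lies between Efna1 and Efna4 on chromosome 3, and in the RefSeq gene table of assembly GRCm38.p6 no other protein-coding gene lies among the 3. Its representative probe set (1431170_at) read 7.14, 5.43 and 5.45 on the albino arrays, against 7.14, 5.36 and 5.32 on the pigmented arrays. The replicate 1 array of each genotype stood far above the other arrays, while the genotypes hardly parted at any replicate number, with differences of 0.00, 0.07 and 0.13. The pooled difference of 0.07 carried an SE of 0.65 and an interval of -1.49 to 1.62, which narrowed to an SE of 0.059 with the replicate block. The second probe set (1455344_at) had the opposite sign, at -0.09 (SE 0.12). The protein-coding genes next to the ephrin run differed by 0.09 (Slc50a1, SE 0.09, which encodes a sugar transporter) and 0.02 (Adam15, SE 0.19, which encodes a membrane metalloprotease).

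The promoters of the 3 neighbouring genes are shown because these genes lie side by side on the chromosome while their readings differed in pattern over the arrays. Each runs from 250 bases before the annotated start to 50 bases from the start on, from RefSeq on GRCm38.p6, and capitals mark the GC box GGGCGG and the CCAAT box, each searched on both strands (as CCGCCC and ATTGG on the reverse).
Efna1 promoter, chr3:89280902-89281201, minus strand: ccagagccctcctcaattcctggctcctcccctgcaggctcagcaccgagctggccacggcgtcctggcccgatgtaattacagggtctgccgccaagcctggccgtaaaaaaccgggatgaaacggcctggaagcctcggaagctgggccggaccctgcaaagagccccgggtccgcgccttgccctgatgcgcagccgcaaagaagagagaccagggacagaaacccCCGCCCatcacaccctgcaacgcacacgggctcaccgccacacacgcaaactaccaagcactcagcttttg
Efna3 promoter, chr3:89322890-89323189, minus strand: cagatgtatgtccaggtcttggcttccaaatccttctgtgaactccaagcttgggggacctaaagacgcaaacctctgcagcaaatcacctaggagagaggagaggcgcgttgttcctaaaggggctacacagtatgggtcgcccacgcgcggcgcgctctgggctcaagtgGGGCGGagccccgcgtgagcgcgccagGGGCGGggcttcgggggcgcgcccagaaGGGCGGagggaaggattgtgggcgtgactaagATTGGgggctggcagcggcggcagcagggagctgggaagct
Efna4 promoter, chr3:89337979-89338278, minus strand: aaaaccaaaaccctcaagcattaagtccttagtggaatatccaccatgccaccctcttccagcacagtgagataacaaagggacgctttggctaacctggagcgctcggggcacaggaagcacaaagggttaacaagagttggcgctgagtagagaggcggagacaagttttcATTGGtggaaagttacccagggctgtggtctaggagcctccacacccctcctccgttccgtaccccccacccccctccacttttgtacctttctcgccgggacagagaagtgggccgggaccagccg

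The Efna1 promoter held 1 GC box and no CCAAT box, the Efna3 promoter 3 GC boxes and 1 CCAAT box, and the Efna4 promoter 0 GC boxes and 1 CCAAT box. Over 19826 promoters of the same length, 29.5% held a GC box and 38.2% a CCAAT box. The E-box CACGTG, which the RPE regulator MITF is known to bind, was in 0 of the 3, against 6.73% of all promoters. The M-box core CATGTG, searched also as its reverse, which is CACATG, was in 0 of the 3, against 15.5%. Efna4 had the lowest share of G and C among the 7 ephrins whose symbol matched the promoter table, all but Efnb3 (55.7%), against 63.7% for Efna1, 64.0% for Efna3 and a median of 50.7% over all promoters. These matches describe the letters only.

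Efna2, which encodes ephrin-A2, a ligand known from the map of retinal axons in the midbrain, overlapped between the genotypes. Its representative probe set (1444606_at) read 8.92, 8.55 and 8.57 on the albino arrays, against 9.0, 8.53 and 8.40 on the pigmented arrays. Again replicate 1 was the highest array of each genotype. The difference was 0.04 (SE 0.19, interval -0.41 to 0.49), and its sign turned under both other scalings. The second probe set (1417521_at), between 6.03 and 6.42 on all arrays, also gave 0.04 (SE 0.13).

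Efna5 encodes ephrin-A5, the other A-class ligand that patterns the retinal map. Its representative probe set (1436866_at) read 9.55, 9.85 and 9.75 on the albino arrays, against 9.35, 9.87 and 9.99 on the pigmented arrays. In both genotypes replicate 1 was the lowest array, the reverse of Efna2 and Efna3. Albino minus pigmented was -0.02 (SE 0.19, interval -0.46 to 0.42), with same-numbered arrays at 0.20, -0.02 and -0.24. The second probe set (1421796_a_at) stayed between 3.57 and 4.09, under the tested level, and gave 0.24 without a test.

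The B-class ligand gene Efnb2 encodes ephrin-B2, which marks arterial endothelium and, in the retina, the dorsal side. Its representative probe set (1419639_at) read 10.60, 10.65 and 10.45 on the albino arrays, against 10.54, 10.79 and 10.79 on the pigmented arrays. The genotypes overlapped through pigmented replicate 1. Albino minus pigmented was -0.14 (SE 0.11, interval -0.41 to 0.13) and did not pass. It was -0.24 without both replicate 1 arrays and -0.04 with the mean of Y-linked genes as a covariate.

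The other 3 Efnb2 probe sets did not give 1 direction. They read 9.23 ± 0.13 against 9.14 ± 0.22 (1419638_at), 5.13 ± 0.17 against 5.27 ± 0.26 (1449549_at) and 5.06 ± 0.30 against 4.77 ± 0.006 (1449548_at, mean below 5 and not tested) in albino against pigmented pools (SD, n = 3 each). Differences were 0.09, -0.14 and 0.29. Of the 13 tested arterial and venous endothelial markers 4 were higher and 9 lower, with 0 past the threshold. The members with the smallest p were Unc5b, a netrin receptor gene of arteries (-0.20, SE 0.09), and Nr2f2, a regulator gene of veins (0.30, SE 0.18). The other Nr2f2 probe sets ranged from -0.19 to 0.22.

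Efnb1, the X-linked gene of ephrin-B1, a ligand of neural crest-derived tissue, gave opposite array patterns at different probe sets. The representative probe set (1418286_a_at) read 8.53, 7.93 and 7.92 on the albino arrays, against 8.67, 7.97 and 8.01 on the pigmented arrays, with replicate 1 highest in each. Its second probe set (1418285_at) read 7.26, 7.83 and 7.66 in the albino pools, against 6.88, 8.01 and 7.95 in pigmented pools, with replicate 1 lowest in each. The last one (1451591_a_at) stayed between 6.23 and 6.51.

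Between the genotypes the 3 Efnb1 probe sets gave -0.09 (SE 0.25), -0.03 (SE 0.32) and 0.05 (SE 0.10). At the representative probe set albino was lower in 3 of 3 same-numbered pairs (-0.14, -0.04 and -0.09), and the blocked fit had an SE of 0.057 and an adjusted p of 0.433 from limma. The pairs went both ways at 1418285_at (0.38, -0.18 and -0.29) and at 1451591_a_at (0.28, -0.05 and -0.07). The mean of 3 Y-linked genes read 7.47, 7.06 and 7.99 on the albino arrays, against 7.39, 2.32 and 5.98 on the pigmented arrays, with pigmented replicate 2 far below the rest. With that mean as a covariate the Efnb1 difference at the representative probe set was -0.33 (SE 0.29) and did not pass.

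Efnb3, which encodes ephrin-B3, a midline repellent of axons in the spinal cord, read 8.50, 8.11 and 8.24 on the albino arrays, against 8.43, 8.16 and 8.14 on the pigmented arrays at its only probe set (1423085_at). The arrays of the genotypes interleaved, with replicate 1 highest in each. The difference was 0.04 (SE 0.14, interval -0.30 to 0.37), and it turned to -0.03 after median centring and -0.01 after cyclic loess.

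**Figure D2:**
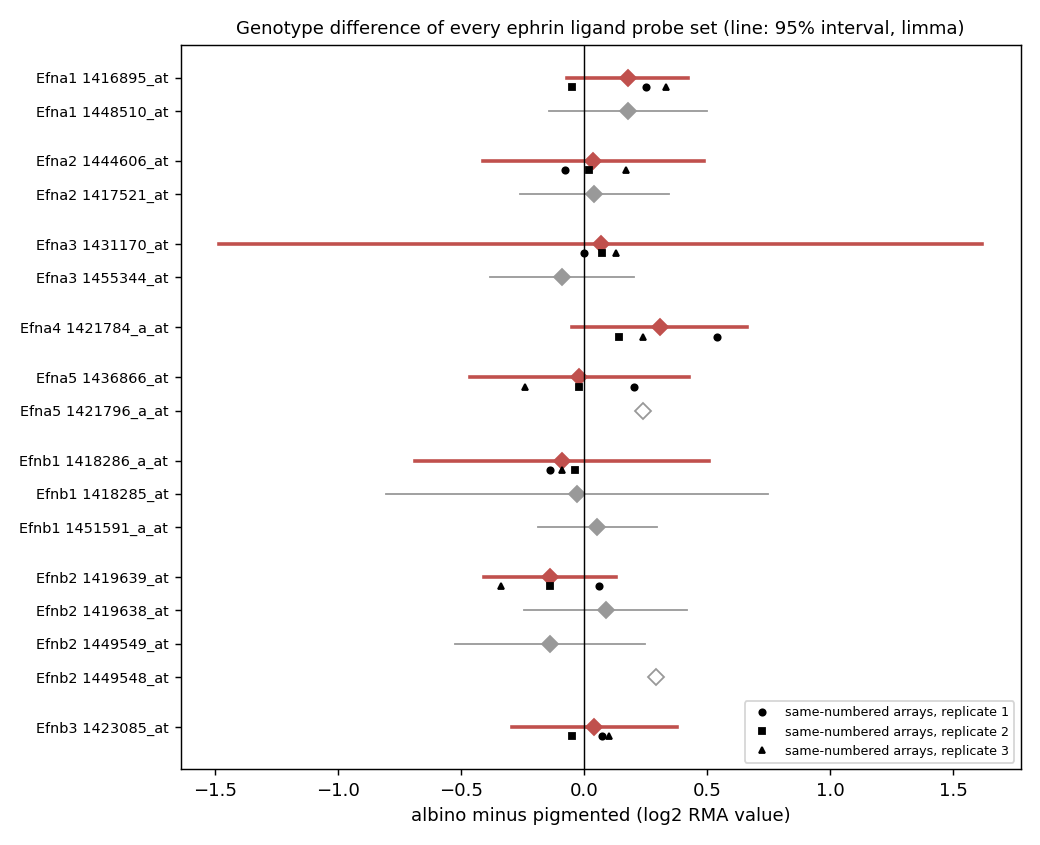
Albino minus pigmented difference in log2 RMA value (horizontal axis) for all 17 ephrin probe sets, with the 95% limma interval as a line for the 15 tested ones, open symbols for the 2 below the tested level, and the representative probe set of each gene in red. Small black markers give the differences between same-numbered arrays, and every interval covers 0.

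The replicate number parted readings across the whole array, those of the ephrins among them. Both replicate 1 arrays lay above the other 4 arrays at 6 of the 15 tested ephrin probe sets, against 43.5% of all tested probe sets, and below them at 4, against 15.7%. By representative probe set they lay above for 4 of the 8 genes and below for 1. The mean of the replicate 1 arrays minus that of the other arrays reached 1.75 for Efna3 and 0.64 for Efnb1 at their representative probe sets, and -0.42 for Efna5. Within Efnb1 it was -0.79 at the second probe set, and the second Efna3 probe set moved by 0.25.

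Control probe sets at the ends of 2 transcripts parted the same arrays. The 3′ minus 5′ difference of Actb was 1.04, 0.86 and 0.89 on the albino arrays, against 1.35, 0.93 and 1.01 on the pigmented arrays. That of Gapdh was 0.70, 0.56 and 0.50 on the albino arrays, against 0.86, 0.55 and 0.68 on the pigmented arrays. Replicate 1 was the highest array of its genotype in each case, and the part of RNA quality in the ephrin readings was not tested.

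**Figure D3:**
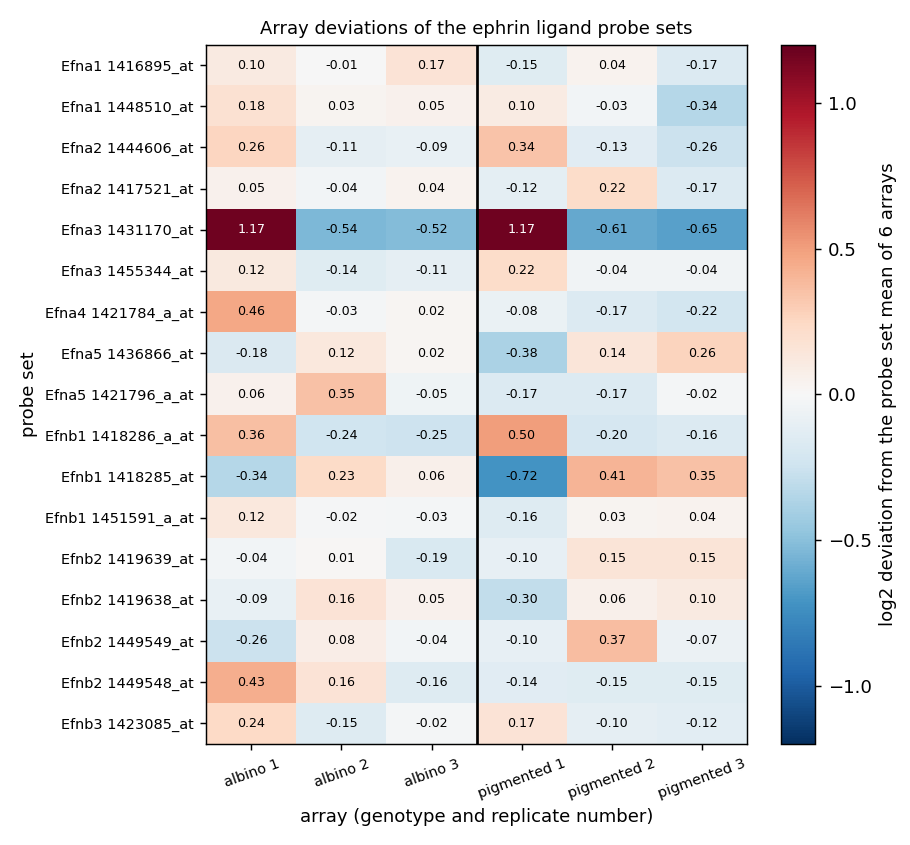
Deviation of each array (columns) from the mean of 6 arrays, in log2 units, for the 17 ephrin probe sets (rows), with albino arrays left of the line and pigmented arrays right of it. Efna3 1431170_at deviates by 1.17 on both replicate 1 arrays, and the first 2 rows of Efnb1 deviate in opposite directions there.

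By their pattern over the 6 arrays, Efna3 and Efnb1, the members with the widest range, were set against all other tested genes. The measure was the root mean square difference between array deviations from each gene's own mean. The nearest genes were Rpl39, a ribosomal protein gene (0.09), Galnt3, a glycosyltransferase gene (0.10), and Scrn2 (0.134) for Efna3, and Mpv17l2 (0.0243), Zmym3 (0.0291) and Vstm2l (0.0297) for Efnb1. Each of these genes read highest on both replicate 1 arrays, as did 43.5% of all tested probe sets. The likeness holds for the representative probe sets only. The second Efna3 probe set had a range of 0.36, and the replicate 1 arrays of the second Efnb1 probe set moved by -0.79.

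The Eph receptors, which bind these ligands, were represented by 13 genes of 14 listed, of which 11 were tested and 0 passed. Of the 11, 6 read higher and 5 lower in albino pools, with a median difference of 0.10 beside 0.047 over all tested probe sets, and the same 6 to 5 split under both other scalings. The albino arrays all lay above the pigmented arrays for Epha3, Ephb3 and Ephb4, which is 3 of 11 against 7.39% of all tested probe sets, and all below for 0 receptors, against 3.44%. Epha3, which encodes a receptor for ephrin-A5, read 10.49, 9.93 and 9.87 on the albino arrays, against 9.46, 9.08 and 9.39 on the pigmented arrays. Every albino array lay above every pigmented array, and its 3 other probe sets also averaged higher in albino pools (0.81, 1.07 and, below the tested level, 0.43). The difference of 0.79 (SE 0.20) did not pass (limma adjusted p = 0.728, and 0.192 with the replicate block), and the part of the muscle markers in it was not tested. Efna5, the gene of its ligand, differed by -0.02.

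The levels of the other EphA receptors in albino against pigmented pools averaged 9.12 against 9.02 for Epha7, 8.35 against 8.21 for Epha4, 6.42 against 6.13 for Epha1, 6.37 against 6.49 for Epha2, 6.32 against 6.33 for Epha5 and 5.12 against 5.34 for Epha10. Epha8 (4.95 against 5.04) and Epha6 (3.28 against 3.17) were below the tested level. Those of the EphB receptors were 9.11 against 8.86 for Ephb3, 7.94 against 7.81 for Ephb4, a receptor of veins whose partner is ephrin-B2, 5.82 against 6.02 for Ephb1 and 5.60 against 5.63 for Ephb6. Of these, Ephb3 differed by 0.25 (SE 0.11), Ephb4 by 0.13 (SE 0.09) and Epha10 by -0.22 (SE 0.14), and the intervals covered 0. At their other tested probe sets Epha4 gave 0.29 to 0.61, Epha7 0.13 to 0.34 and Epha5 0.06 and 0.24, again with intervals that covered 0. Ephb2 was not analysed here.

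**Figure D4:**
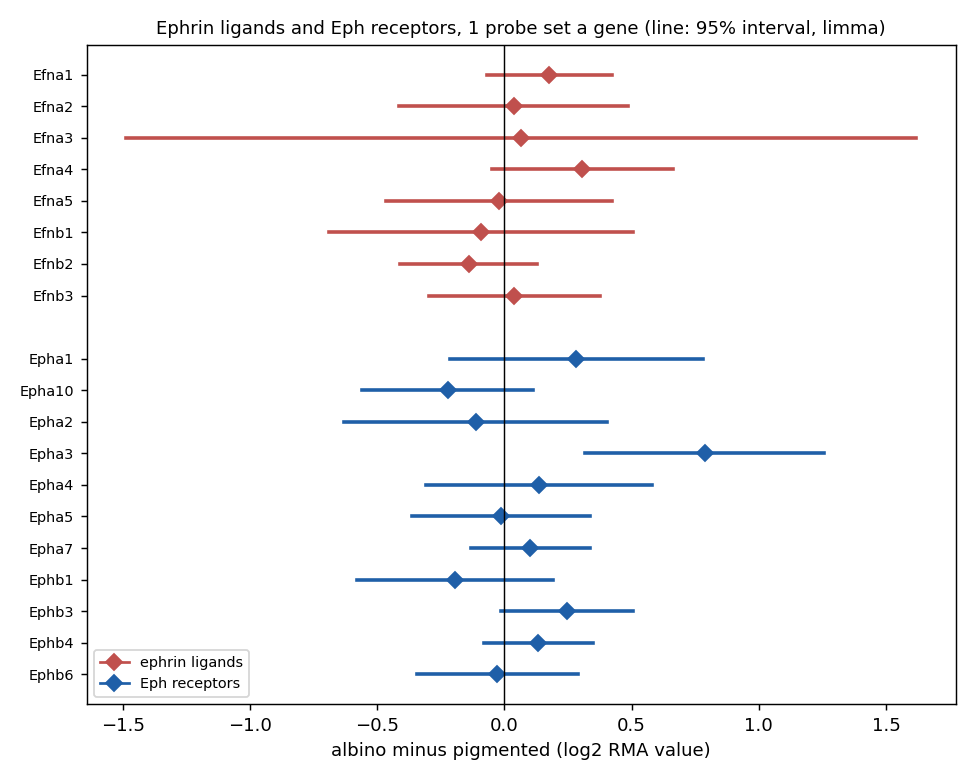
Albino minus pigmented difference in log2 RMA value (horizontal axis) with 95% limma intervals for the 8 ephrin ligands (red, above) and the 11 tested Eph receptors (blue, below), 1 probe set a gene. The interval of Epha3, around 0.79, is the 1 that leaves out 0, before adjustment over all probe sets.

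Genes that cut ephrins or carry their reverse signal gave 7 higher and 7 lower of 14 tested (5 higher after median centring), with a median of 0.03 and 0 past the threshold. Leaving 1 array out gave 7 to 12 higher of the 14. The median then ran from -0.027 (without albino replicate 1) to 0.091 (without pigmented replicate 1). Adam10, the sheddase gene of A-class ephrins and chosen after its values were seen, differed by -0.12 (SE 0.09), with 0.15 and 0.01 at its other tested probe sets. The smallest p values were those of Ngfr, a receptor gene that takes part in reverse signalling of ephrin-A (0.41, SE 0.12, with its 2 dim probe sets at -0.05 and -0.15), and Grip1, a PDZ scaffold gene (0.16, SE 0.11). Genes that carry the forward signal of Eph receptors gave 13 higher and 5 lower of 18, with a median of 0.03 and 0 past the threshold, but 6 higher after median centring and 11 after cyclic loess. Vav3, an exchange factor gene, differed by 0.35 (SE 0.12), and Chn1, which encodes the Rac-inactivating chimaerin downstream of EphA4, by 0.20 (SE 0.12, with its dim probe set at -0.24).

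Genes listed for dorsal and ventral eye patterning, which pool genes of both sides, read higher in 3 and lower in 10 of 13 tested, with a median of -0.19 and 0 past the threshold. Without albino replicate 1, chosen after seeing the data, 6 were higher and 7 lower, with a median of -0.105. Leaving out any other array gave 9 or 10 lower. Bmp4, the dorsal signal gene, read 8.52, 8.30 and 8.30 on the albino arrays, against 7.97, 7.81 and 7.84 on the pigmented arrays, with no overlap and a difference of 0.50 (SE 0.10, limma adjusted p = 0.595). Vax1, a ventral regulator gene, read 5.14, 5.17 and 5.29 in the albino pools, against 5.74, 5.44 and 5.48 in pigmented pools, a difference of -0.35 (SE 0.11). Vax2, which was chosen after its values were seen, differed by -0.30 (SE 0.11). Tbx5, a dorsal regulator gene that induces B-class ephrins in the chick retina and was likewise chosen after its values were seen, differed by -0.20 (SE 0.33). The other T-box genes of the list went both ways, with Tbx2 at -0.19 (SE 0.11) and Tbx3 at 0.33 (SE 0.23). Tbx3 gave 0.12 at its other tested probe set and -0.32 to -0.09 at its dim ones. Their part in the ephrin values was not tested.

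The marker lists of tissues that the dissection could hold each had 0 genes past the threshold, and their counts stand with the 2 genes of smallest p. In albino pools RPE identity genes were lower in 12 of 13 (median -0.18, Ttr -0.56 and Trpm3 -0.32, with 1 of its tested probe sets at 0.05), neural retina markers lower in 8 of 9 (median -0.26, Nefl 0.60 and Rax -0.26) and lens markers lower in 7 of 7 (median -0.83, Cryab -0.14 with a second tested probe set at 0.01, and Crybb3 -0.83). Without albino replicate 3, whose lens mean was low, lens markers were lower in 4 of 7 with a median of -0.01. Periocular mesenchyme markers were lower in 6 of 11 (median -0.07, Foxc2 -0.25 and Twist1 -0.25). Skeletal muscle markers were higher in 12 of 12 (median 1.54, Myf5 1.67 and Myog 1.71), surface ectoderm markers in 6 of 8 (median 0.055, Epcam 0.44 with a second tested probe set at -0.29, and Krt15 0.61), macrophage markers in 8 of 10 (median 0.105, C1qc 0.40 and Aif1 0.45), erythroid markers in 5 of 6 (median 0.083, Hbb-y -0.14 and Alas2 0.34) and Y-linked genes in 3 of 3 (median 2.26, Uty 2.21 and Eif2s3y 2.35). After median centring 4 of the 8 surface ectoderm, 5 of the 10 macrophage and 3 of the 6 erythroid markers were higher. With 1 array left out, chosen after seeing the data, the median turned to -0.10 for surface ectoderm and -0.10 for erythroid markers without albino replicate 1, to -0.007 for surface ectoderm without pigmented replicate 2, and to 0.09 for periocular mesenchyme without pigmented replicate 1. The Y-linked median was 0.83 without pigmented replicate 2. What each tissue contributed to the ephrin signals was not tested.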

How the data were processed

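Gene expression was measured on 6 arrays. The deposited values are log2 expression values made by the authors with Affymetrix Expression Console 1.1 and RMA, per the submitters' processing notes, from biotin-labelled cRNA of 100 ng total RNA, per the labels' protocols. RMA equalises the distributions of the arrays (medians 5.19 to 5.22), so a shift common to all transcripts is lost. Apart from that, a level cannot be set against that of another probe set. The number of arrays limits the precision, and no value column was left out.

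Gene names came from the array platform's annotation: 34945 of 45101 named 1 gene, 932 several and 9160 none, besides 64 controls. Controls and probe sets with a mean below 5 were left out, which kept 23591. The probe set of highest mean stood for a gene. Genotypes were compared as albino minus pigmented with limma 3.58.1 in R 4.3.3 (lmFit, eBayes, two-sided, threshold 0.05), with p adjusted by Benjamini-Hochberg over the 23591. The fit was tested on simulated data. Errors are SD over 3 arrays or limma SE, and confidence intervals are at 95% before adjustment.

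Deviations from the genotype means correlated at 0.863, 0.687 and 0.448 between arrays numbered 1, 2 and 3, so same-numbered arrays were treated as pairs, which the labels do not state. Albino replicates 2 and 3 correlated slightly more with the other number than with their own (0.693 for albino 2 with pigmented 3, 0.546 for albino 3 with pigmented 2). Deviations cancel within each genotype, so arrays set apart at replicate 1 alone make those numbered 2 and 3 correlate. The correlations therefore cannot show which of the arrays numbered 2 and 3 belong together. The fit without the block is the main one. Alternatives were the block, 2 scalings, other filters and probe set rules, a variance trend, a Y-linked covariate and arrays left out. The members and lists were chosen with earlier results of these data known. All 8 ephrins were named, with the 2 genes of smallest p from each other list, every Eph receptor, and others where stated. Nearest patterns were sought for the 2 ephrins of widest range.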

Additional observations from a re-analysis of the deposited data

How the results depend on the processing

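The count of ephrins past the adjusted threshold was 0 under all 16 alternatives, as were the counts over Eph receptors and over all probe sets. With the replicate block 0 ephrins passed, and the block changed no call. Efna1 and Efna4 stayed higher in albino pools (0.10 to 0.26 and 0.15 to 0.40) and Efnb2 lower (-0.24 to -0.04) under all 16. Several of the 16 could not change the sign. The block, the variance trend and the level filters left the differences at 0.177, 0.307 and -0.14. For Efnb2 this holds for its representative probe set and the average, while its single probe sets gave both directions. The median of the ephrins was -0.035 after median centring, -0.01 after cyclic loess, -0.049 with the Y-linked covariate, and -0.076 to 0.142 with 1 array left out. The number of ephrins whose genotypes do not overlap, 1 in the full data, was 2 with probe sets averaged (11.4% of all genes) and 6 of 8 without both replicate 1 arrays (46.2% of all probe sets), and ran from 1 to 5 with 1 array left out. The 5 came without pigmented replicate 1 (33.6% of all probe sets), and 2 came without albino replicate 1 (22.9%), albino replicate 2 (15.1%) or pigmented replicate 2 (14.1%).

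Signs turned for 5 ephrins, none of which passed in either direction, and the cause was not tested. Median centring gave -0.037 for Efna2, -0.007 for Efna3 and -0.033 for Efnb3, cyclic loess -0.009 for Efna2 and -0.011 for Efnb3, and probe set averaging -0.012 for Efna3. The Y-linked covariate gave -0.111 for Efna2, -0.539 for Efna3, 0.153 for Efna5 and -0.059 for Efnb3. With 1 array left out the differences ran from -0.085 to 0.215 for Efna2, -0.500 to 0.667 for Efna3, -0.213 to 0.107 for Efna5, -0.292 to 0.137 for Efnb1 and -0.068 to 0.133 for Efnb3. With the filter at a mean of 6, Efna3 was not tested.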
